A study of Mus musculus with 18 samples.

Results

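The genes described here make up the route by which a cell shows peptides from its own proteins on MHC class I molecules. They were chosen by name: B2m, H2-K1, H2-D1, Psmb8, Psmb9, Psmb10, Tap1, Tap2, Tapbp and Nlrc5, which are 10 of the 23421 genes in a table of RNA-seq levels. All 10 were found, as 12 RefSeq transcripts, because Tap1 and Tapbp had 2 transcripts each. For each gene the transcript with the higher mean level was used.

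The RNA came from mouse embryonic stem (ES) cells of 129/Ola background and from embryoid bodies (EBs), aggregates in which ES cells differentiate. The groups were EBs labelled Eed KO, wild-type EBs, ES cells labelled Eed KO and wild-type ES cells, all of the E36 line, and E14 ES cells given a short hairpin RNA against Setd2 (shSetd2) or a scrambled control hairpin (shCtrl). Eed is a core subunit of the Polycomb complex PRC2, which methylates histone H3 at lysine 27, and Setd2 is the enzyme that trimethylates histone H3 at lysine 36. All cells were grown with 15% serum. EBs were formed as hanging drops of 1000 cells over 48 hours, received 0.5 µM retinoic acid between day 2 and day 5 and were grown to day 9. E14 cells were infected with lentivirus, selected with puromycin and taken at day 4. The labels give neither the age nor the number of clones of the lines. Each group was 1 library, so no difference below has a replicate check and no test was possible. Levels are in FPKM (fragments scaled to transcript length and to the library's total), and in bulk RNA fewer cells of a type and less RNA per cell cannot be told apart.

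A class I molecule is a heavy chain, such as those encoded by H2-K1 and H2-D1, held by the small invariant subunit beta-2-microglobulin (B2m). The peptide in its groove is cut by the proteasome, carried into the endoplasmic reticulum by the transporter made of Tap1 and Tap2, and loaded with the help of tapasin (Tapbp). Psmb8, Psmb9 and Psmb10 are the catalytic subunits of the immunoproteasome, which take the places of Psmb5, Psmb6 and Psmb7 when interferon or inflammation induces them. Nlrc5 is a transactivator that acts at class I promoters through a module of boxes shared with class II genes. Undifferentiated ES cells are known for showing little class I on their surface.

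The promoter windows below, 250 bases before to 50 after each start site, are shown for the 4 members that were higher in EBs labelled Eed KO and for Psmb10, which was not. They come from RefSeq with build GRCm38.p6, in which 8 of the 10 members had a window. Tap2 and Nlrc5 had none there. Capitals mark matches, on either strand, to any of 5 short motifs searched.
B2m, chr2:122147437-122147736, plus strand: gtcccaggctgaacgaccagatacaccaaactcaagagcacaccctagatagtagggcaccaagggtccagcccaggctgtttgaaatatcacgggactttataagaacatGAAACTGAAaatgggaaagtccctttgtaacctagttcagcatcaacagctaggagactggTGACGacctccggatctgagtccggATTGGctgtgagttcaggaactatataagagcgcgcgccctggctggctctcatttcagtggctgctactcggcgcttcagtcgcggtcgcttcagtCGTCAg
H2-K1, chr17:34000284-34000583, minus strand: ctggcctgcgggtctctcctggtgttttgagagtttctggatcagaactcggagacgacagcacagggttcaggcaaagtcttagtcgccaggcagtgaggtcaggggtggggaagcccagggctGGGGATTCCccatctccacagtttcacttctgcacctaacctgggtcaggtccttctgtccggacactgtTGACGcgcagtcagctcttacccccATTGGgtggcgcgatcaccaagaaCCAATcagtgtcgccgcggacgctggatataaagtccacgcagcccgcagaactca
H2-D1, chr17:35262844-35263143, plus strand: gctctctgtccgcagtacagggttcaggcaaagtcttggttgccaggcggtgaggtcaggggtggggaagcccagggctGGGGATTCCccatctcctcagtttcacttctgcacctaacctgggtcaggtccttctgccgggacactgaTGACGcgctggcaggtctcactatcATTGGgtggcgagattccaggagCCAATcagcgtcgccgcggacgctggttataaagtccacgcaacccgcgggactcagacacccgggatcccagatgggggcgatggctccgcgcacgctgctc
Psmb9, chr17:34187281-34187580, minus strand: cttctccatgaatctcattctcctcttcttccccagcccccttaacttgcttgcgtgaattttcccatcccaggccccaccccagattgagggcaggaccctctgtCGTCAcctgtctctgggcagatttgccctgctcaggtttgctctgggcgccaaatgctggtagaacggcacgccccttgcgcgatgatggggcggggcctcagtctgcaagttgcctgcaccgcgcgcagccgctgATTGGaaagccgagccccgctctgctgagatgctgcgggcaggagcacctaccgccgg
Psmb10, chr8:105938343-105938642, minus strand: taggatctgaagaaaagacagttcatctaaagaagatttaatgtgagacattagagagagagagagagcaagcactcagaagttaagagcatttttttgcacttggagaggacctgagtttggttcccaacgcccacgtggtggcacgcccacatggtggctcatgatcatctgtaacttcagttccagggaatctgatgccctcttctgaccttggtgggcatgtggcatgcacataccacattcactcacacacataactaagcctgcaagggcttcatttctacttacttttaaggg

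The interferon response element was searched as GAAANNGAA, which 8.53% of 32544 RefSeq promoter windows hold. Among the 8 members with a window, only that of B2m held these letters. Other spellings of the element were not searched, so a window without this match may still hold one. The STAT element was searched as TTCNNNGAA, held by 8.33% of all windows and, among members, by that of Psmb8. The NF-kB element was searched as GGGNNTTCC, held by 5.85% of all windows and by those of H2-K1 and H2-D1. The Y box was searched as ATTGG, which 37.4% of all windows held, against 6 of the 8 members. The X2 box was searched as TGACG, which 20.9% of all windows held, against 5 of the 8 members. The window of Psmb10 held none of the 5 motifs. The windows of H2-K1 and H2-D1 had the same base at 225 of 253 aligned positions, whereas the other pairs of members had between 139 and 171 positions alike. Tap1 and Psmb9 are transcribed away from each other from start sites 226 bases apart, so 275 bases of their windows are the same DNA. Their Y box match is a single shared site, as is their X2 box match, so the member counts for these boxes include each site for both genes. A match is a run of letters and not evidence of binding.

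The authors' table gives intervals on the mouse build mm9. On chromosome 17 it places Tapbp at 34056423 to 34066235, H2-K1 at 34132957 to 34137278, Psmb9 at 34319044 to 34324275, Tap1 at 34324501 to 34334170, Psmb8 at 34335140 to 34338399 and Tap2 at 34341424 to 34353266. Psmb9, Tap1, Psmb8 and Tap2 thus lie side by side. Psmb10, at 108459628 to 108462292, and Nlrc5, at 96996663 to 97051172, are on chromosome 8. The intervals of B2m, chromosome 2 at 121945844 to 122011925, and of H2-D1, chromosome 17 at 35400039 to 35462354, also cover other genes (Patl2 and Trim69, and H2-Q1) and are longer than the genes.

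Summed FPKM per library ran between 452782 in EBs labelled Eed KO and 598935 in wild-type ES cells, and relative depth read from the smallest values ran between 0.792 and 1.22 with wild-type ES cells at 1. Read counts were not used here, so no counting interval can be given. Eed mRNA was 21.8 FPKM in EBs labelled Eed KO and 25.04 FPKM in wild-type EBs, and 77.8 FPKM in ES cells labelled Eed KO and 72.3 FPKM in wild-type ES cells. The mRNA level therefore does not check the Eed KO label, and every direction below that involves a library so labelled rests on that label. Setd2 was 2.59 FPKM in shSetd2 cells and 16.8 FPKM in shCtrl cells. All 12 ES cell markers listed were at 1 FPKM or more in each of the 4 ES libraries.

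The 10 genes spanned a wide range of levels. B2m, the shared light subunit, had 242 FPKM in EBs labelled Eed KO, 69.9 in wild-type EBs, 23.9 in ES cells labelled Eed KO, 21.9 in wild-type ES cells, 19.8 in shSetd2 cells and 29.0 in shCtrl cells. The heavy chain H2-K1 had 82.4 FPKM in EBs labelled Eed KO, 25.4 in wild-type EBs, 26.9 in ES cells labelled Eed KO, 25.7 in wild-type ES cells, 17.2 in shSetd2 cells and 10.4 in shCtrl cells. The heavy chain H2-D1 had 49.8, 17.2, 13.1, 14.2, 12.8 and 9.18 FPKM in the same 6 libraries, in that order. All 3 were highest in EBs labelled Eed KO. The class I heavy chains are close copies of each other, so the division of reads among H2-K1, H2-D1 and their relatives is uncertain.

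The immunoproteasome subunits did not share a pattern. In the same library order, Psmb8 had 7.94, 3.85, 1.38, 8.70, 5.67 and 0.624 FPKM. Psmb9 had 9.48, 3.30, 4.15, 6.02, 2.76 and 1.63 FPKM. Psmb10 had 3.76, 8.31, 26.7, 55.6, 18.1 and 10.08 FPKM. Psmb8 and Psmb10 were highest in wild-type ES cells, Psmb9 in EBs labelled Eed KO, and Psmb10 was lowest in the library where B2m was highest.

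The transporter subunits moved more alike. Tap1 had 12.7, 8.63, 1.29, 3.65, 0.525 and 0.608 FPKM in that order, and Tap2 had 13.0, 7.58, 1.35, 4.18, 1.95 and 0.402 FPKM. Tapasin had 12.4, 11.0, 8.30, 13.97, 6.21 and 5.61 FPKM. Nlrc5 had 0.627, 0.0859, 0.0719, 0.323, 0.125 and 0.0316 FPKM, below 1 FPKM in each library. It was thus not counted as expressed, which here means 1 FPKM or more in at least 1 of the 2 libraries compared.

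**Figure D1:**
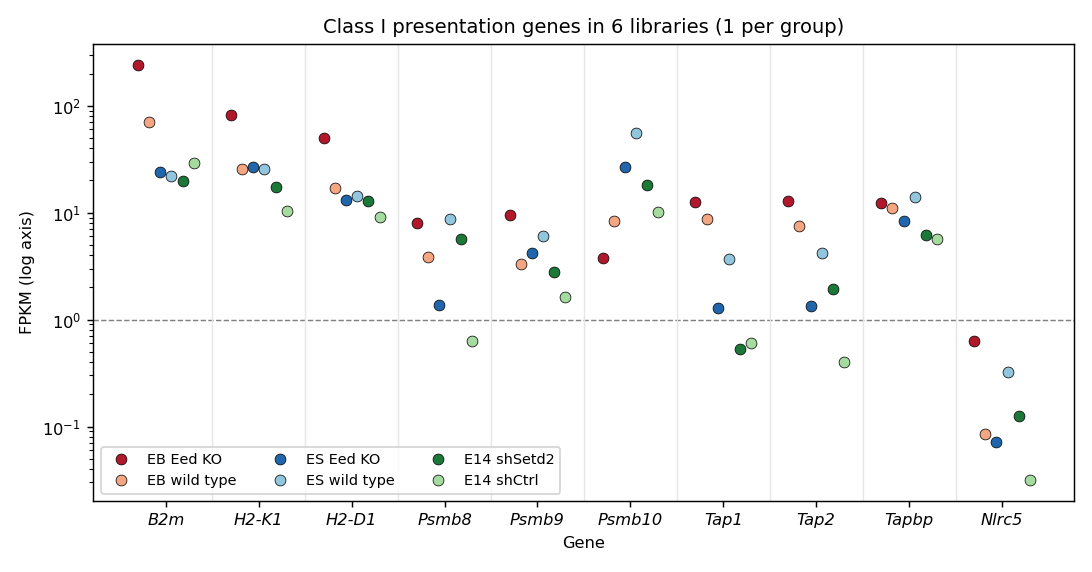
Level of each of the 10 genes in the 6 libraries, in FPKM on a log axis, 1 point per library and no error bars because each group is 1 library. B2m, H2-K1 and H2-D1 sit highest in EBs labelled Eed KO (242, 82.4 and 49.8 FPKM), while Psmb10 sits highest in wild-type ES cells (55.6 FPKM).

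EBs labelled Eed KO were set against wild-type EBs. The heavy chains, B2m and Psmb9 were higher in EBs labelled Eed KO. A difference is given as log2(FPKM + 1) in the first library minus the second, and a gene is called higher or lower at a size of 1 or more. B2m had 242 FPKM in EBs labelled Eed KO, against 69.9 FPKM in wild-type EBs, a 3.46-fold ratio and a difference of 1.77. H2-K1 had 82.4 against 25.4 FPKM (1.66), H2-D1 had 49.8 against 17.2 FPKM (1.48) and Psmb9 had 9.48 against 3.30 FPKM (1.29). These made 4 of the 9 expressed members higher and 0 lower. The background over 13919 expressed genes was 8.15% higher and 10.4% lower (1135 and 1450 genes, or 1355 and 1156 under median-of-ratios rescaling). The median difference was 0.88 over the 9 members and -0.16 over all expressed genes.

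The other members stayed within the threshold. Psmb8 had 7.94 FPKM in EBs labelled Eed KO and 3.85 FPKM in wild-type EBs (0.88), Tap2 13.0 and 7.58 FPKM (0.70), Tap1 12.7 and 8.63 FPKM (0.51) and Tapbp 12.4 and 11.0 FPKM (0.15). Psmb10 was on the other side of 0, at 3.76 FPKM in EBs labelled Eed KO and 8.31 FPKM in wild-type EBs (-0.97). The second Tapbp transcript had 13.1 FPKM in EBs labelled Eed KO and 5.24 FPKM in wild-type EBs, so the tapasin result depends on which transcript is read: the 2 together gave 25.5 FPKM and 16.3 FPKM. The ratio of H2-K1 to B2m was 0.341 in EBs labelled Eed KO and 0.363 in wild-type EBs, so heavy chain and light subunit were higher by about the same factor.

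EBs are a mixture of cell types, and markers of several types differed between the EB libraries. Neuron markers summed to 10.6 FPKM in EBs labelled Eed KO and 613 FPKM in wild-type EBs, with 12 of 12 expressed markers lower, 7 of them under 1 FPKM in EBs labelled Eed KO, and Map2 and Elavl4 at 0 in EBs labelled Eed KO. ES cell markers summed to 33.2 FPKM and 260 FPKM in the same order, with 10 of 12 lower, 5 of them under 1 FPKM in EBs labelled Eed KO. Fibroblast markers summed to 2054 FPKM and 1015 FPKM, with 6 of 12 higher and 0 lower. Epithelial markers summed to 421 and 151 FPKM (8 of 10 higher), and extraembryonic endoderm markers to 849 and 492 FPKM (4 of 7 higher). The part of these cell types in the class I result was not tested. Blood and macrophage markers, the cells that carry much class I, each stayed under 1 FPKM in both EB libraries: the 17 summed to 2.48 FPKM in EBs labelled Eed KO and 1.69 FPKM in wild-type EBs, and Spi1, Cd3e, Nkg7, Gata1, Adgre1 and Aif1 were at 0 in EBs labelled Eed KO.

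In undifferentiated ES cells labelled Eed KO, no member was higher and 4 of the 9 expressed members were lower, all from the peptide-supply steps. Psmb8 had 1.38 FPKM in ES cells labelled Eed KO, against 8.70 FPKM in wild-type ES cells (-2.03). Tap2 had 1.35 against 4.18 FPKM (-1.14), Psmb10 26.7 against 55.6 FPKM (-1.03) and Tap1 1.29 against 3.65 FPKM (-1.03). The background over 12862 expressed genes was 3.24% higher and 3.46% lower (417 and 445 genes, or 508 and 326 under equal-total rescaling). Under that rescaling Psmb10 and Tap1 were within the threshold. B2m (0.12), H2-K1 (0.06) and H2-D1 (-0.10) differed by little, and Psmb9 (-0.45) and Tapbp (-0.69) lay within the threshold. The members had a median of -0.69, which is the Tapbp value, and all expressed genes one of -0.05. The second Tapbp transcript had 9.52 FPKM in ES cells labelled Eed KO and 5.70 FPKM in wild-type ES cells. With transcripts summed Tapbp was at -0.13 and the members' median at -0.45.

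This result turned on the wild-type library. Against shCtrl cells in place of wild-type E36 cells, the same ES library labelled Eed KO had 2 of 9 members higher and 0 lower, where 5.47% of 12805 expressed genes were higher and 3.86% lower. Psmb10 was 1.32 higher and H2-K1 1.30 higher on that scale, and Psmb8, Tap1 and Tap2 had differences of 0.55, 0.51 and 0.75. Psmb10 lies on chromosome 8, whose genes had a median -0.34 relative to all genes in shCtrl against wild-type ES cells. The part of that shift in the Psmb10 value was not tested. The lines, the E14 culture with its virus and the wild-type library cannot be told apart in this switch.

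Levels in shCtrl cells were set against the other control. Relative to wild-type E36 ES cells, 7 of the 9 expressed members were lower in shCtrl cells and 0 higher, where 3.14% of 12747 expressed genes were higher and 5.65% lower (400 and 720 genes, or 484 and 558 under median-of-ratios rescaling). Psmb8 had 0.624 FPKM in shCtrl cells and 8.70 FPKM in wild-type E36 ES cells (-2.58), Psmb10 10.08 and 55.6 FPKM (-2.35) and Tap2 0.402 and 4.18 FPKM (-1.89). Psmb8, Tap1 and Tap2 were under 1 FPKM in shCtrl cells and passed the filter only through wild-type ES cells, so 4 of the 7 lower members had 1 FPKM or more in both libraries. H2-D1 (-0.58) and B2m (0.39) were within the threshold. Line, culture and virus differ together between these libraries. Genes of chromosome 8, which carries Psmb10, had a median -0.34 relative to all genes in this comparison, and its part was not tested. The median over the members was -1.42, against -0.10 over all expressed genes.

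Setd2 knockdown was compared with shCtrl cells within E14. Psmb8 had 5.67 FPKM in shSetd2 cells, against 0.624 FPKM in shCtrl cells (2.04), and Tap2 had 1.95 against 0.402 FPKM (1.07). Both passed the expression filter only through the shSetd2 library, so a count over the members says little. They were the 2 members higher of 8 expressed, with 0 lower, where 0.706% of 12317 expressed genes were higher and 1.7% lower (87 and 210 genes, or 138 and 156 under upper-quartile rescaling). Psmb10 had 18.1 FPKM in shSetd2 cells and 10.08 FPKM in shCtrl cells (0.79), and H2-K1 17.2 and 10.4 FPKM (0.68). B2m was the only expressed member below 0, at 19.8 and 29.0 FPKM (-0.53). The median was 0.60 over the 8 members and -0.13 over all expressed genes. Psmb8 and Tap2 are among these 8, so the median has the same limit as the count. The Tap1 transcript used and Nlrc5 were under 1 FPKM in both E14 libraries. With the second Tap1 transcript added, Tap1 had 1.20 FPKM in shSetd2 cells and 0.710 FPKM in shCtrl cells (0.36). It then also passed the filter only through the shSetd2 library. With transcripts summed the median was 0.52 over 9 expressed members.

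**Figure D2:**
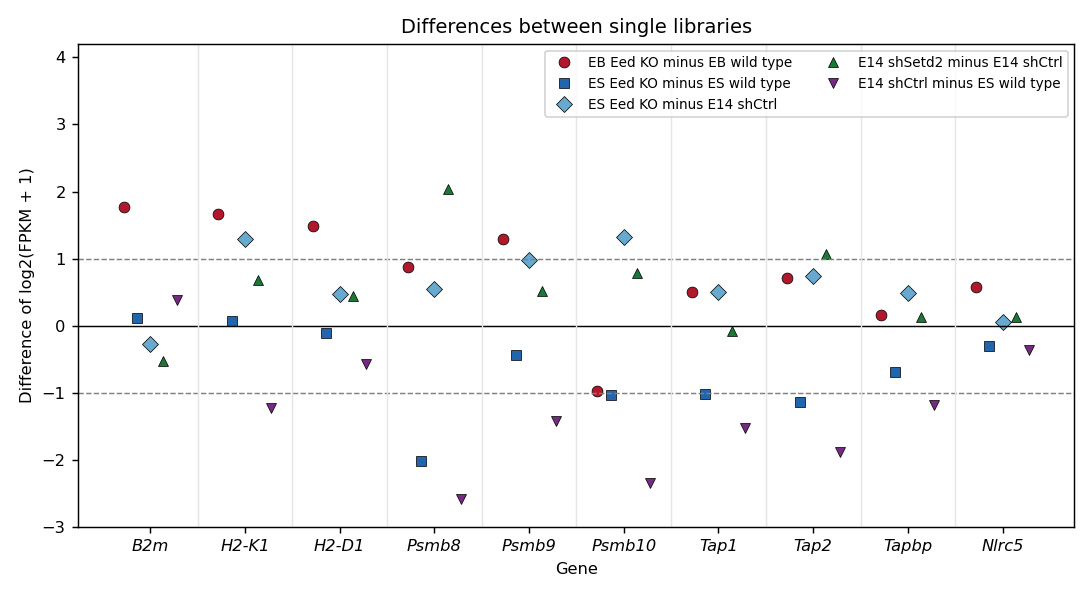
Difference of log2(FPKM + 1) for each of the 10 genes in the EB and ES comparisons of Eed KO with wild type, in ES cells labelled Eed KO against shCtrl cells, in shSetd2 against shCtrl cells and in shCtrl against wild-type ES cells. Dashed lines mark a size of 1, and there are no error bars because each point is 1 library against 1. B2m (1.77), H2-K1 (1.66), H2-D1 (1.48) and Psmb9 (1.29) lie above the line in EBs, and for Psmb8 the ES point lies at -2.03 against wild-type cells and at 0.55 against shCtrl cells.

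The proteasome subunits were also read as a share of each catalytic site: the inducible subunit over the sum of it and its constitutive partner, a level ratio per length. Psmb8 made up 9.10% of Psmb8 and Psmb5 in EBs labelled Eed KO and 2.95% in wild-type EBs. In ES cells the same share was 0.756% in those labelled Eed KO and 3.51% in wild-type cells, and in E14 cells it was 5.55% in shSetd2 cells and 0.512% in shCtrl cells. Psmb9 made up 9.60% of Psmb9 and Psmb6 in EBs labelled Eed KO and 1.64% in wild-type EBs, and lay between 0.797% and 2.26% in the 4 ES libraries. Psmb10 made up 3.23% of Psmb10 and Psmb7 in EBs labelled Eed KO, 4.16% in wild-type EBs, 11.4% in ES cells labelled Eed KO and 19.3% in wild-type ES cells. The constitutive partners stayed above the inducible subunits in each library. The partners differed too: Psmb5 had 79.3 FPKM in EBs labelled Eed KO and 127 FPKM in wild-type EBs. Psmb6 had 89.2 and 198 FPKM and Psmb7 113 and 191 FPKM in that order. The shares in EBs therefore reflect lower partners as well as the inducible subunits.

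**Figure D3:**
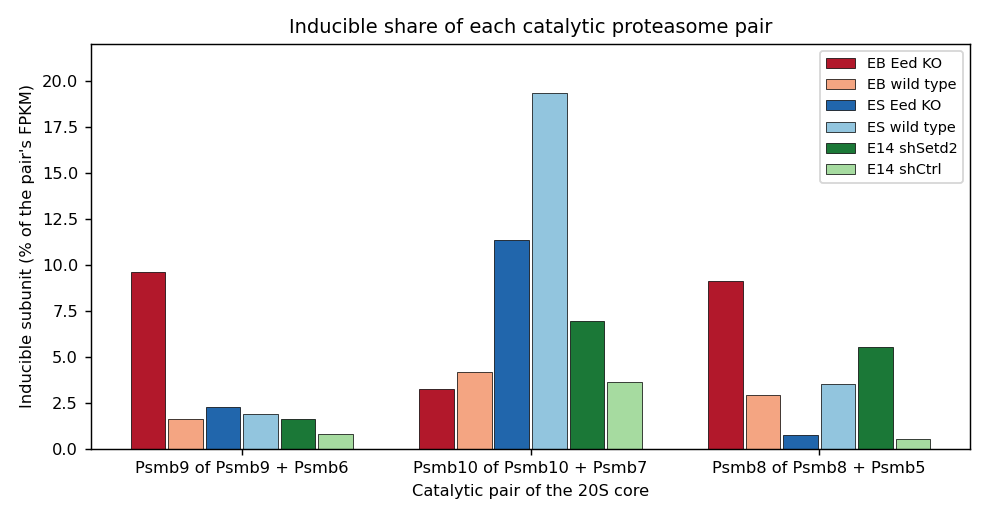
Share of each proteasome catalytic site held by the inducible subunit, in percent of the FPKM of the pair, in 6 libraries with 1 bar each and no error bars. Psmb8 and Psmb9 shares are highest in EBs labelled Eed KO (9.10% and 9.60%), and the Psmb10 share is highest in wild-type ES cells (19.3%).

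Differentiation was compared within each genotype. In wild-type cells, B2m had 69.9 FPKM in EBs and 21.9 FPKM in ES cells (1.63), and Tap1 had 8.63 and 3.65 FPKM (1.05). Psmb10 had 8.31 FPKM in wild-type EBs and 55.6 FPKM in wild-type ES cells (-2.60), and Psmb8 lay just inside the threshold at 3.85 and 8.70 FPKM (-0.999). That made 2 of 9 members higher and 1 lower, where 20.3% of 14047 expressed genes were higher and 14.9% lower (2855 and 2100 genes, or 3606 and 1439 under equal-total rescaling), a share of members near that background. In the cells labelled Eed KO, 7 of 9 members were higher and 1 lower, where 20.8% of 13999 expressed genes were higher and 19.6% lower (2913 and 2738 genes, or 3645 and 2062 under equal-total rescaling). B2m (3.28), Tap1 (2.58) and Tap2 (2.57) had the largest differences, and Psmb10 was lower at 3.76 FPKM in EBs and 26.7 FPKM in ES cells (-2.54). The comparisons within wild type and within Eed KO share no library, but each shares libraries with the Eed comparisons.

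Subtracting the Eed difference in ES cells from that in EBs gave the largest values for Psmb8 (2.91), Tap2 (1.84), Psmb9 (1.73) and B2m (1.65). In all, 7 of 9 members were at 1 or more, where 9.13% of 14772 expressed genes were at 1 or more. The members' median was 1.59, against -0.11 over all genes. Psmb10 (0.06) and Tapbp (0.84) were the other 2. These values rest on the wild-type ES library. With shCtrl cells as the ES control, 2 of 9 members were at 1 or more, B2m (2.04) and H2-D1 (1.01), where 8.21% of 14820 expressed genes were. Psmb8 was then at 0.33, Psmb9 at 0.31, Tap2 at -0.04 and Psmb10 at -2.29, and the members' median was 0.31, against -0.19 over all genes. The part of the chromosome 8 shift of shCtrl cells in this Psmb10 value was not tested.

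The genes around this pathway were counted from fixed lists, and the same size rule gives the background stated above for each comparison. In EBs labelled Eed KO against wild-type EBs, 10 of 20 expressed other class I heavy chains were higher and 1 was lower, with a median of 1.01. H2-Q1 and H2-Q8, 2 of those higher, passed the filter only through the EBs labelled Eed KO. The 9 H2-Q genes summed to 136 FPKM and 24.8 FPKM in that order, though near-identical copies make the division among them uncertain. Products of class II genes present peptides taken up from outside. Of 12 class II genes listed, 5 were expressed and all 5 were higher, with a median of 1.84. Of these 5, Cd74, H2-DMb1 and H2-DMb2 were under 1 FPKM in wild-type EBs and passed the expression filter only through the library where they are high. Cd74, the invariant chain, had 11.5 FPKM in EBs labelled Eed KO and 0.981 FPKM in wild-type EBs. H2-Ab1, a class II beta chain, had 35.2 and 9.07 FPKM. The rest of the list was under 1 FPKM in both EB libraries, among them Ciita (0.132 and 0.0640 FPKM), H2-Aa (0.470 and 0.0311 FPKM) and H2-Eb1 (0.520 and 0.734 FPKM).

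Among factors that act at these promoters, 2 of 16 expressed were higher and 0 lower in the EBs labelled Eed KO. Over all expressed genes 8.15% were higher and 10.4% lower, so this count is near the background. Rfx5, which binds the X box, had 27.8 FPKM in EBs labelled Eed KO and 5.95 FPKM in wild-type EBs. Irf8, an interferon regulatory factor, had 6.90 and 0.884 FPKM. Irf1 was 7.14 FPKM in EBs labelled Eed KO and 7.46 FPKM in wild-type EBs. In interferon signalling, 3 of 17 were higher and 0 lower: Usp18 with 7.18 and 1.02 FPKM, the receptor Ifnlr1 with 4.33 and 0.421 FPKM, and Irf9 with 4.01 and 0.867 FPKM. Irf8, Ifnlr1 and Irf9 passed the filter only through the EBs labelled Eed KO. None of the 9 interferon genes in the table reached 1 FPKM. Of the 14 constitutive 20S subunits, 2 were higher and 2 lower, with a median of -0.50.

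In ES cells labelled Eed KO against wild-type ES cells, Irf1, which induces the class I genes in the interferon response, had 17.7 FPKM and 40.4 FPKM (-1.14), and Erap1, the aminopeptidase that trims peptides for loading, had 1.60 and 5.40 FPKM (-1.30). They were the only lower genes among 15 promoter factors and 13 loading genes. Over all 12862 expressed genes 3.46% were lower, so this count is near the background. The proteasome activator subunits Psme1 and Psme2 had 41.2 and 32.5 FPKM in ES cells labelled Eed KO, against 67.9 and 58.0 FPKM in wild-type ES cells, both within the threshold. Of 14 constitutive 20S subunits, 0 were higher and 0 lower. Irf1 had 7.58 FPKM in shCtrl cells and 40.4 FPKM in wild-type ES cells (-2.27), and 20.8 FPKM in shSetd2 cells and 7.58 FPKM in shCtrl cells (1.35).

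**Figure D4:**
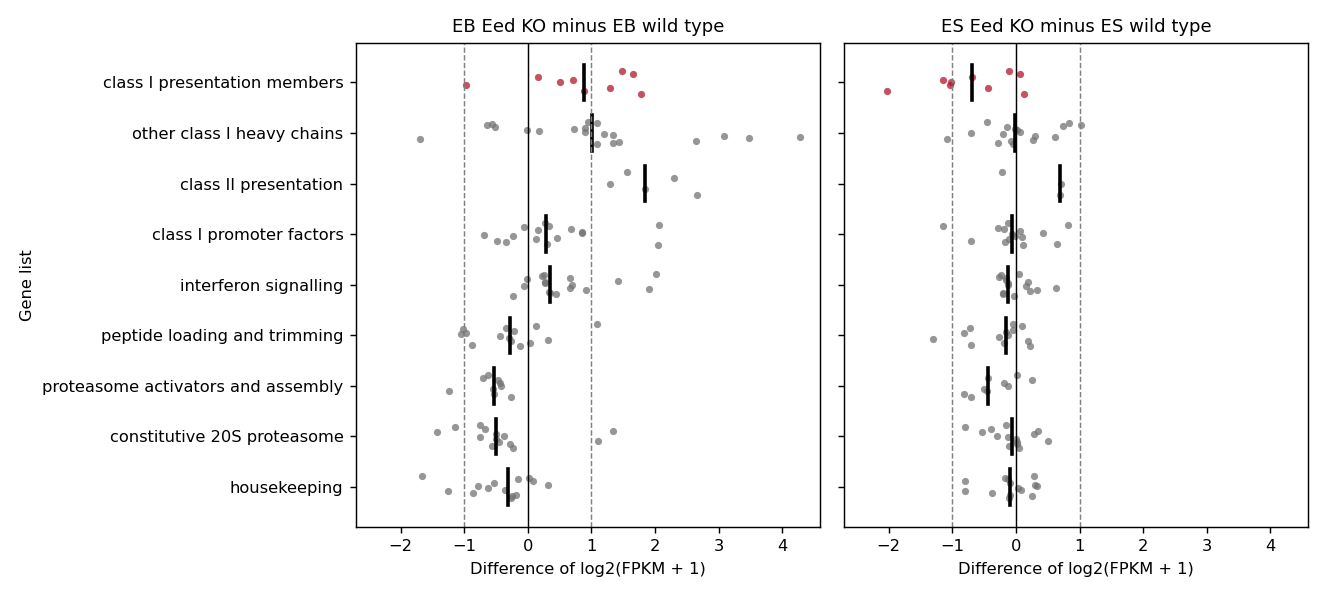
Difference of log2(FPKM + 1) for the expressed genes of each list, with 1 point per gene and a vertical bar at the median, for Eed KO minus wild type in EBs (left) and in ES cells (right). Dashed lines mark a size of 1, and there are no error bars because each group is 1 library. In EBs the medians of class II genes (1.84) and other class I heavy chains (1.01) lie above 0, while that of the constitutive 20S subunits (-0.50) lies below it. Of the 5 class II genes, 3 passed the expression filter only through the EBs labelled Eed KO, where they are high. So did the heavy chains H2-Q1 and H2-Q8.

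Of the members, 7 expressed genes lie in a stretch of chromosome 17 from 34056423 to 37411430 on mm9, which holds 194 genes of the table. Its ends were set by the listed genes after values were seen. In EBs labelled Eed KO against wild-type EBs, 10 of 17 expressed other class I genes there were higher and 4 of 4 class II genes, of which 3 and 2 genes passed the filter only through the EBs labelled Eed KO, while of the 90 expressed genes that belong to neither list 4 were higher and 10 lower, with a median of -0.28. Among the 4 were a transcript without a symbol that starts where H2-T22 does (1.77) and Gm8909 (1.21), which lies near H2-T10. The 90 can thus hold class I relatives that the lists do not name, such as H2-T-ps (0.96). Also among the 4 were Hspa1a and Hspa1b, heat shock proteins. Both were also among the 5 genes whose profile over 6 libraries lay closest to the members' median profile, out of 11206 screened. Hspa1b had 11.5 FPKM in EBs labelled Eed KO and 3.85 FPKM in wild-type EBs, at a root mean square distance of 0.136. The others were Wdr86 (0.158), Aif1l (0.161), Dsc2 (0.175) and Hspa1a (0.179). The members themselves lay farther from their median profile, between 0.208 for Psmb9 and 1.53 for Psmb10. Closeness to that profile is therefore not closeness to any single member. Hspa1a and Hspa1b are themselves close copies.

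**Figure D5:**
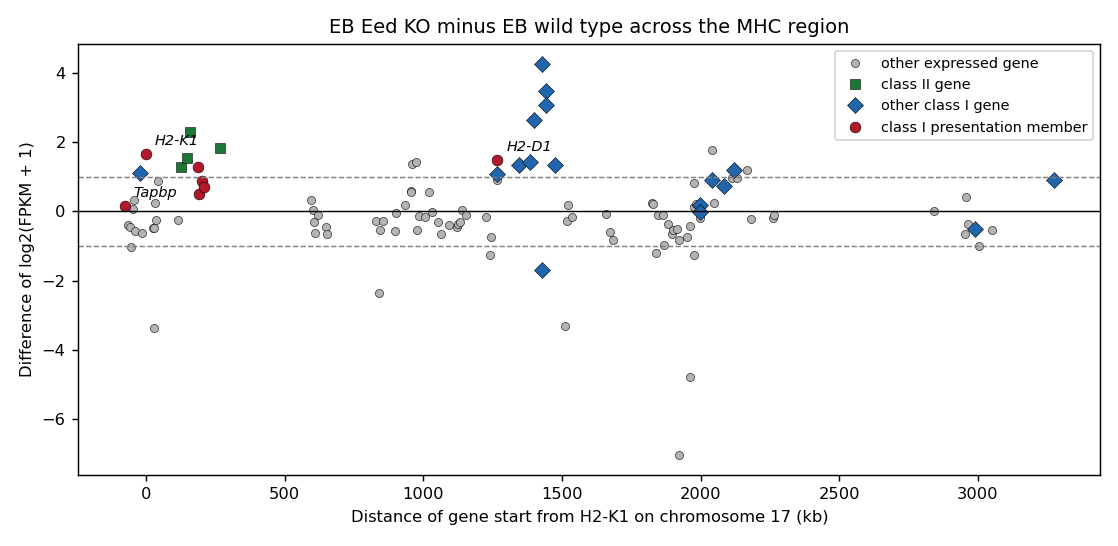
Difference of log2(FPKM + 1) between EBs labelled Eed KO and wild-type EBs for expressed genes of the chromosome 17 stretch, against distance in kilobases from H2-K1, coloured by gene class, with 1 point per gene and dashed lines at a size of 1. The 4 class II genes and 10 of 17 other class I genes sit above the upper line, where 8.15% of 13919 expressed genes were higher. Of these, 2 class II and 3 class I genes passed the expression filter only through the EBs labelled Eed KO. The 90 other genes, which can hold class I relatives not listed, have a median of -0.28.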

How the data were processed

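RNA-seq levels from 6 libraries were used; the 12 ChIP samples of the series were not analysed here. The authors' deposited table gives FPKM per RefSeq transcript for 29851 transcripts, made with TopHat and Cuffdiff on mm9, per the submitters' processing notes. Their versions and settings, the library's strandedness and the read counts were not stated there. Each library is normalized to its own total, so a gene's FPKM also depends on what the other genes do.

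From the table, symbols came from RefSeq accessions (29300 of 29851 transcripts matched), and the transcript with the highest mean FPKM stood for a gene. Differences are of log2(FPKM + 1), which understates changes of low genes. A gene was expressed at 1 FPKM in either library, and called at a difference of 1. With 1 library per group there was no test. Alternatives were pseudocounts of 0.1 and 0.5, a filter of 5 FPKM, 3 rescalings (upper quartile, median of ratios, equal total), no filter, summed transcripts, a 1.5-fold rule and shCtrl cells as the ES control. All 10 members are named, and from other lists up to 4 with the largest difference. A few further genes and the chromosome 17 stretch were chosen after their values were seen. These genes were Irf1 in EBs, H2-Q1, Ciita, H2-Aa, H2-Eb1 and the neuron and blood markers at 0. The others were Hspa1a, Hspa1b, Gm8909, H2-T-ps and the transcript without a symbol, as region genes. The members and lists were chosen with earlier results of these data known. Of the listed genes, 8 had no match in the table. Python 3.11.15 and pandas 2.3.3 were used, and the functions were tested on simulated data.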

Additional observations from a re-analysis of the deposited data

Results flagged for a closer look

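The Eed difference in ES cells and the Eed difference in EBs had opposite signs in 6 of the 9 expressed members. The share of all expressed genes with opposite signs was not counted, so this count cannot be called particular to the members. With 1 library per group the difference between the EB and ES values was not tested. The EB difference minus the ES difference, in log2(FPKM + 1), was 2.91 for Psmb8, which had 7.94 FPKM in EBs labelled Eed KO and 3.85 FPKM in wild-type EBs, against 1.38 FPKM in ES cells labelled Eed KO and 8.70 FPKM in wild-type ES cells. It was 1.84 for Tap2, 1.73 for Psmb9, 1.59 for H2-D1, 1.53 for Tap1 and 0.84 for Tapbp. Nlrc5, under 1 FPKM in each library, also had opposite signs. For H2-D1 the ES difference was -0.10, close to 0. With shCtrl cells as the ES control, the same values were 0.33 for Psmb8, -0.04 for Tap2, 0.31 for Psmb9, 1.01 for H2-D1, -0.00094 for Tap1 and -0.34 for Tapbp, and the ES differences of all 6 were then above 0. The neuron, fibroblast and epithelial marker sums given in the report also differed between the EB libraries, and their part was not tested.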

How the results depend on the processing

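No paired analysis was possible because each group is 1 library, and for the same reason none could be left out. In ES cells labelled Eed KO against wild-type ES cells, the count of called members was 4, and 2 under the 5 FPKM filter, which Tap1 and Tap2 did not pass, and under upper-quartile, median-of-ratios and equal-total rescaling. Under these 3 rescalings Psmb8 and Tap2 stayed called, and Psmb10 (-0.95, -0.99 and -0.90) and Tap1 (-0.95, -0.98 and -0.91) were within the threshold. Against shCtrl cells the count was 2, both higher, and the signs reversed for Psmb8 (0.55), Psmb10 (1.32), Tap1 (0.51) and Tap2 (0.75). In EBs labelled Eed KO against wild-type EBs the count was 4, and 7 under the 1.5-fold rule. For wild-type EBs against wild-type ES cells it was 3, and 6 under that rule. For shSetd2 against shCtrl it was 2, with 1 under the 5 FPKM filter and 4 under the 1.5-fold rule. The cause was not tested. In all, 55 of 65 alternative counts were within 1.5 times the main one. For the EB minus ES difference, whose alternatives were all chosen after seeing the data, the count was 7, and 3 with shCtrl cells as the ES control (2 higher and 1 lower), where Tap1 (-0.00094) and Tap2 (-0.042) reversed. In EBs Psmb8 reached 1.02 with a pseudocount of 0.1, and Psmb10 reached -1.13 with 0.1 and -1.05 with 0.5, so 1 member was then lower. Equal-total rescaling put the median of all genes at 0.29 for wild-type EBs against wild-type ES cells, where it was 0.03, and at 0.21 for EBs against ES cells labelled Eed KO, where it was -0.05.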

Other observations

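One list joined ligands of natural killer cell receptors with immune checkpoint genes. Of these, the ligand H60b had 8.23 FPKM in EBs labelled Eed KO and 1.18 FPKM in wild-type EBs. In ES cells it had 0.861 FPKM in those labelled Eed KO and 1.501 FPKM in wild-type cells. It was the 1 called higher of 5 expressed on the joint list in the EB comparison, where 8.15% of 13919 expressed genes were higher.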
